A study of Schizosaccharomyces pombe with 4 samples.

Results

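The mitochondrial genome of fission yeast (*Schizosaccharomyces pombe*) carries 8 protein genes outside introns, and 6 of them have no intron themselves: cox3 (SPMIT.04), atp6 (SPMIT.07), rps3 (SPMIT.08), atp8 (SPMIT.09), atp9 (SPMIT.10) and cox2 (SPMIT.11). These 6 genes were chosen by identifier and are given here in their order along the genome, out of 7022 annotated transcripts of which 38 are mitochondrial. The other 2 protein genes, cox1 (SPMIT.01) and cob (SPMIT.05), contain introns and serve as the nearest comparison. The levels of the 6 messages were compared between dbr1Δ cells, which lack the enzyme that opens the branched lariats left by splicing, and wild-type cells.

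The dbr1Δ strain came from the Bioneer deletion collection, and the wild type was strain ED668. Both strains are h+ and carry ade6-M216, ura4-D18 and leu1-32, so all 4 libraries share these marker mutations. For each strain, 2 separately grown cultures in YES, a rich medium, were collected at 32 °C and an optical density (OD600) of 0.4, and their total RNA was depleted of rRNA and sequenced by strand. A single deletion strain was sampled, so an effect of the deletion and any other difference between the 2 strains cannot be told apart. In bulk RNA, a change in the number of mitochondria or mitochondrial genomes per cell and a change in RNA per genome cannot be told apart either.

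Mitochondrial genes of yeasts are transcribed as long precursors that cover several genes. The tRNAs that lie between the protein genes are cut out of these precursors, and this releases the messages. In *S. pombe* a run of C residues follows the mitochondrial messages and is known as the C-core, near which mature 3′ ends lie. Of the 6 genes, cox2 and cox3 encode core subunits of cytochrome c oxidase, atp6, atp8 and atp9 encode subunits of the membrane part of ATP synthase, and rps3 encodes a protein of the small mitochondrial ribosomal subunit. All these proteins work with partners that are encoded in the nucleus and imported.

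All 6 reading frames lie on the plus strand of chromosome MT. In the coordinates of the deposited table (Ensembl build EF1), cox3 covers MT:8947-9765 (819 bases), atp6 covers MT:14756-15529 (774 bases) and rps3 covers MT:15954-16637 (684 bases). Further along, atp8 covers MT:16914-17060 (147 bases), atp9 covers MT:17806-18030 (225 bases) and cox2 covers MT:18561-19307 (747 bases). The table gives identifiers only. The gene names come from the RefSeq annotation of assembly ASM294v3, whose mitochondrial genes lie within 20 bases of those in the table with the same genes on either side. The RefSeq reading frames begin with ATG and end with TAA in all 6 genes, and rps3 alone has a TGA codon inside its frame, 1 in 227 codons.

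The stop codon of each gene and the bases up to the next gene, at most 27, are shown because they hold the run of C that follows every one of these messages. The sequences are from RefSeq (ASM294v3, plus strand), and the longest run of C is in capitals.
cox3, MT:9768-9797: taaggcttacttcaatttttCCCCCCtttt
atp6, MT:15529-15551: taattttctCCCCCtatttttat
rps3, MT:16637-16663: taattgtttCCCCCttcaatcatttaa
atp8, MT:17060-17083: taatttaaCCCCtccaaaagtatt
atp9, MT:18030-18058: taatttCCCCCtttaaaaaagagaatact
cox2, MT:19307-19336: taacctCCCCCCtaaagtgtttattaaatg

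The run was 4 to 6 bases long and began after 3 to 17 other bases from the stop codon, in each case before the next annotated gene. The motif CCCC was searched on both strands. It lay within 27 bases after the stop codon, on the coding strand, in 6 of the 6 genes and in 8 of the 8 protein genes outside introns. Of the 25 mitochondrial tRNA genes, 2 had it within 27 bases of their end. Of all windows of 27 bases in the mitochondrial genome, 1.93% held it on the plus strand and 1.98% on the minus strand. In RefSeq the next gene began 48 bases after cox3, 20 after atp6, 24 after rps3, 21 after atp8 and 26 after atp9, a tRNA gene in each case. After cox2 the circular genome continues for 124 bases to the gene of the large rRNA.

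The shortest reading frame is that of atp8, which had the lowest counts and the largest fold change of the 6 genes. It is shown whole to make its length and its low content of G and C visible, with its start and stop codons in capitals.
atp8, MT:16916-17062: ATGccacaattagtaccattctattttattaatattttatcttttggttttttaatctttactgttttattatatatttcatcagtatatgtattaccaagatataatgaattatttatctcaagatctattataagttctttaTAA

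Its 147 bases are fewer than the mean fragment size of 200 nt aimed at in the libraries. Bases G and C made up 19.0% of the atp8 frame, 22.5% of rps3, 26.5% of atp6, 30.1% of cox3, 30.9% of cox2 and 38.2% of atp9, against 30.1% of the whole mitochondrial genome.

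The libraries held 24205354 and 19780858 counts in dbr1Δ and 25169220 and 36062720 counts in wild type. The deleted gene dbr1 had 207 and 164 counts in dbr1Δ cells, against 1535 and 1799 counts in wild-type cells, which fits the labels. Of the 12383 loci counted (transcripts and introns), 9518 reached 10 counts in 2 or more libraries and were tested together with edgeR, and all 6 genes were among them. Counts are given below as counted, and levels as CPM, the count in every 1000000 counts of the library after scaling by TMM (trimmed mean of M values). Nothing ties dbr1Δ replicate 1 to wild-type replicate 1, and the libraries were treated as unpaired.

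All 6 messages were more abundant in dbr1Δ cells, by 1.51-fold (cox2) to 2.24-fold (atp8). In each of them both dbr1Δ cultures lay above both wild-type cultures in CPM. That was so for 27.1% of the 6401 tested transcripts. All 6 passed an adjusted p of 0.05 with edgeR, as did 17.8% of tested transcripts in this direction. A further cutoff asked for a fold change over 2 as well. It was passed by 2 of the 6, rps3 and atp8, and by 6.69% of tested transcripts in this direction. None of the 6 fell, while 42.6% of tested transcripts were lower at an adjusted p under 0.05 and 2.81% were lower past the fold cutoff. DESeq2 also put 6 of the 6 at an adjusted p under 0.05 and none lower.

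**Figure D1:**
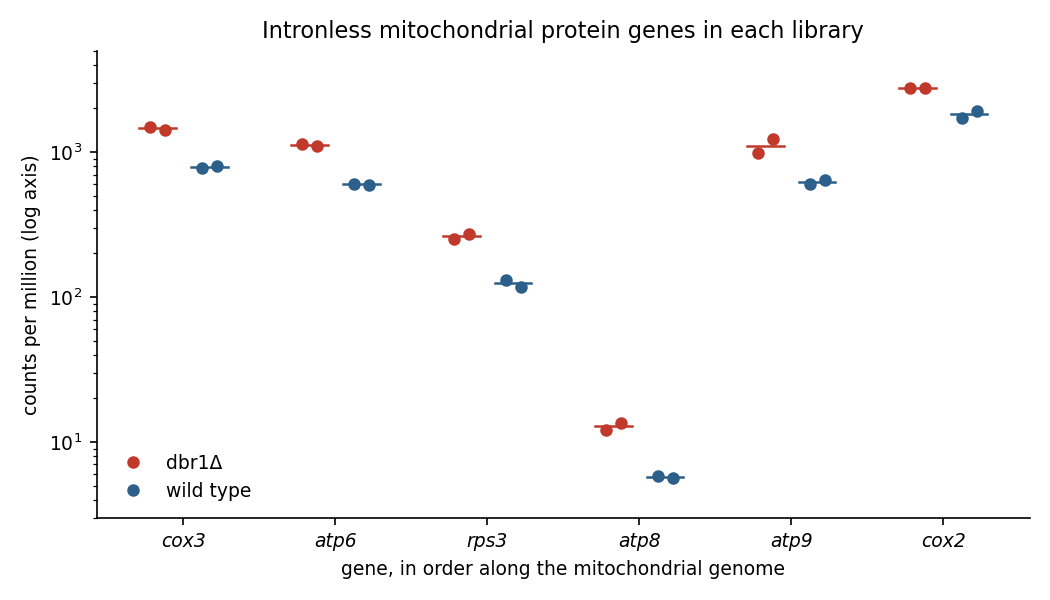
CPM (log axis) of the 6 intronless mitochondrial protein genes in each library, in order along the mitochondrial genome. Points are cultures, dbr1Δ in red and wild type in blue, and bars are the means of 2 cultures. In every gene both dbr1Δ points lie above both wild-type points, and the levels span from atp8 (12.8 CPM in dbr1Δ, 5.72 CPM in wild type) to cox2 (2759 CPM in dbr1Δ, 1828 CPM in wild type).

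Of the cytochrome c oxidase subunits, cox3 had 37705 and 28209 counts in dbr1Δ cells, against 19139 and 28545 counts in wild-type cells. The scaled level was 1465 ± 50.2 CPM in dbr1Δ and 789 ± 23.6 CPM in wild type (SD, n = 2 each). In these scaled values the cultures of 1 strain lay close together and the strains did not overlap, while the raw counts of the strains did. The log2 fold change of cox3 was 0.89 (SE 0.08, adjusted p = 2.53e-05 with edgeR). Subunit III, its product, belongs to the catalytic core without binding the metal centres.

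The message of cox2, whose product holds the copper centre that takes electrons from cytochrome c, was the most counted of the 6. It had 69444 and 54303 counts in dbr1Δ cells, against 42629 and 68518 counts in wild-type cells. In the scaled values, cox2 had 2759 ± 8.31 CPM in dbr1Δ and 1828 ± 151 CPM in wild type (SD, n = 2 each). The raw counts of the strains overlap, since wild-type replicate 2 was the deepest library, and the scaled values do not. Its log2 fold change of 0.59 (SE 0.08, adjusted p = 4.63e-04 with edgeR) was the smallest of the 6.

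Among the ATP synthase genes, atp6, which encodes the subunit that forms the proton path, had 28447 and 21639 counts in dbr1Δ cells, against 14970 and 21007 counts in wild-type cells. Its level was 1115 ± 25.1 CPM in dbr1Δ and 599 ± 7.90 CPM in wild type (SD, n = 2 each). The 2 cultures of each strain nearly coincided. The log2 fold change of atp6 was 0.90 (SE 0.07, adjusted p = 1.90e-05 with edgeR), almost the same as that of cox3.

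The message of atp9, for the subunit that builds the rotating ring, had 24765 and 24247 counts in dbr1Δ cells, against 14877 and 22767 counts in wild-type cells. This gave 986 and 1229 CPM in dbr1Δ and 601 and 643 CPM in wild type. The 2 dbr1Δ cultures differed more for atp9 than for any other of the 6 genes, by 0.32 on the log2 scale, with replicate 2 the higher. The log2 fold change was 0.83 (SE 0.11, adjusted p = 3.36e-04 with edgeR). It was 1.03 without dbr1Δ replicate 1, which put atp9 past the fold cutoff, and 0.70 without dbr1Δ replicate 2.

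The smallest gene, atp8, encodes a short membrane subunit that contacts the atp6 product. It had 305 and 266 counts in dbr1Δ cells, against 144 and 199 counts in wild-type cells. Exact 95% Poisson intervals were 272 to 341 and 235 to 300 counts in dbr1Δ and 121 to 170 and 172 to 229 counts in wild type. Such intervals cover counting error only. Scaled, atp8 had 12.1 and 13.5 CPM in dbr1Δ and 5.81 and 5.62 CPM in wild type. Its log2 fold change of 1.16 was the largest of the 6 and had the largest error (SE 0.14, adjusted p = 1.85e-04 with edgeR).

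The ribosomal protein message rps3 had 6337 and 5350 counts in dbr1Δ cells, against 3246 and 4176 counts in wild-type cells. Its level was 262 ± 13.4 CPM in dbr1Δ and 124 ± 9.28 CPM in wild type (SD, n = 2 each). The strains were separated by several times the difference between cultures. The log2 fold change of rps3 was 1.07 (SE 0.08, adjusted p = 1.38e-05 with edgeR).

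The size of these changes depends on what the libraries are scaled to. Introns enter the scale over all loci, and on it the median tested transcript had a log2 fold change of -0.18. With factors from transcripts alone that median was -0.01, and with factors from nuclear protein-coding transcripts alone it was 0.05. Relative to the median transcript, the 6 genes are thus higher than their fold changes say. With scaling from transcripts the log2 fold changes were 1.07 for cox3, 1.07 for atp6, 1.25 for rps3, 1.34 for atp8, 1.01 for atp9 and 0.77 for cox2. On that scale 5 of the 6 passed the cutoff, against 8.36% of tested transcripts in this direction, and cox2 did not. With factors from nuclear protein-coding transcripts the same count was 5 of 6, against 8.95%. Under these scalings no gene of the 6 changed direction. Among all tested transcripts, the 6 genes ranked between percentile 87.9 (cox2) and percentile 94.7 (atp8) by log2 fold change.

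**Figure D2:**
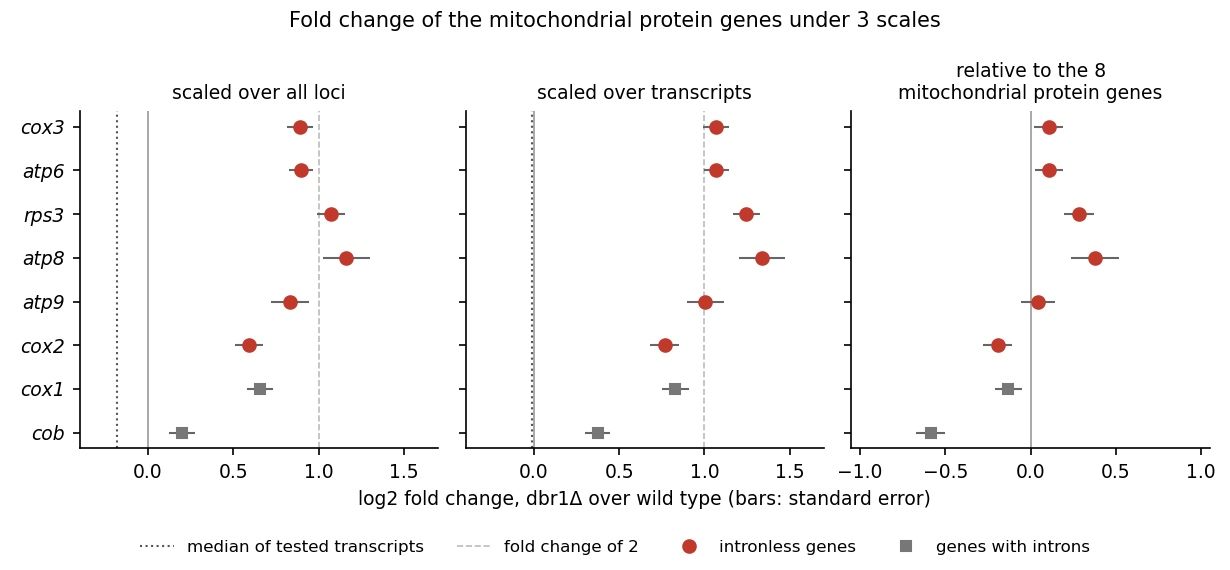
Log2 fold change, dbr1Δ over wild type, of the 6 intronless genes (red) and of cox1 and cob (grey), with factors over all loci (left), with factors from transcripts (middle) and relative to the 8 mitochondrial protein genes (right). Bars are standard errors. Dotted lines mark the median tested transcript, -0.18 on the left and -0.01 in the middle, and dashed lines mark a fold change of 2. The order of the genes is the same in all panels, with atp8 the highest and cob the lowest.

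In their exons, both genes with introns had lower fold changes than most of the 6. The 3 reading frames inside mitochondrial introns had log2 fold changes of 1.42, 1.34 and 0.64. The exons of cox1, the largest catalytic subunit of cytochrome c oxidase, had 72038 and 60960 counts in dbr1Δ cells, against 46217 and 67734 counts in wild-type cells. Its log2 fold change was 0.66 (SE 0.08, adjusted p = 1.74e-04 with edgeR), between those of cox2 and atp9. The exons of cob, which encodes cytochrome b of the bc1 complex, had 43009 and 32241 counts in dbr1Δ cells, against 35686 and 52136 counts in wild-type cells. The log2 fold change of cob was 0.20 (SE 0.07, adjusted p = 0.0451 with edgeR), the lowest of the 8 protein genes. DESeq2 gave cob 0.18 (adjusted p = 0.0572), so its call is lost there.

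Whether the 6 messages changed unequally was tested with the libraries scaled to the geometric mean count of the 8 protein genes, so that a change common to all of them cancels. On this scale rps3 was higher by 0.28 on the log2 scale (SE 0.09, adjusted p = 0.0131 with edgeR) and atp8 by 0.38 (SE 0.14, adjusted p = 0.0326 with edgeR). Those were 2 of the 6 genes, beside 4.36% of tested transcripts called higher on this scale. The values were 0.11 for cox3 (adjusted p = 0.275), 0.11 for atp6 (adjusted p = 0.251), 0.04 for atp9 (adjusted p = 0.714) and -0.19 for cox2 (SE 0.09, adjusted p = 0.0659), all with edgeR. None of the 6 was called lower, beside 82.3% of tested transcripts, while cob was, at -0.59 (SE 0.08, adjusted p = 1.04e-04 with edgeR), and cox1 had -0.13 (adjusted p = 0.153 with edgeR). Since cob is part of the scale, its low value raises those of the others by construction. The 6 genes are themselves part of the scale, which centres their values and shifts most other transcripts down. The 4.36% and 82.3% follow from that shift and are no background rate for the 6 genes. The adjusted p-values depend on the shift as well. They were adjusted over all tested loci, and with most transcripts called lower the adjustment changed the values of rps3 and atp8 little. No adjustment over the 6 genes alone was made, and the calls of rps3 and atp8 may not hold under it. Those 2 calls are therefore weak evidence that the 6 messages changed unequally.

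The calls on this scale changed with the libraries and genes that set it. The call of atp8 was lost without any single library, although its value stayed between 0.33 and 0.42. The edgeR values were 0.42 (adjusted p = 0.0533) without dbr1Δ replicate 1, 0.33 (0.109) without dbr1Δ replicate 2, 0.41 (0.0683) without wild-type replicate 1 and 0.34 (0.139) without wild-type replicate 2. The call of rps3 was lost without wild-type replicate 2 (0.20, adjusted p = 0.160 with edgeR). Without dbr1Δ replicate 1, cox2 was called lower (-0.23, adjusted p = 0.0485 with edgeR). With the summed counts of the 8 genes as the scale, cox3 (0.26, adjusted p = 0.0239 with edgeR) and atp6 (0.26, adjusted p = 0.0232 with edgeR) were called higher too. With cox1 and cob alone as the scale, the values were 0.47 for cox3, 0.47 for atp6, 0.64 for rps3, 0.74 for atp8 and 0.40 for atp9, all called higher, and 0.17 for cox2 (adjusted p = 0.101 with edgeR).

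Between genes, levels were compared per length, as RPKM, the count per kilobase of annotated exon in every 1000000 counts of the library. The order was the same in both strains, and no neighbours in it overlapped in either strain. The highest was atp9, with 4998 ± 637 RPKM in dbr1Δ and 2716 ± 126 RPKM in wild type (SD, n = 2 each, here and below). Next came cox2, with 3758 ± 117 RPKM in dbr1Δ and 2405 ± 195 RPKM in wild type. The levels of cox3 were 1822 ± 114 RPKM in dbr1Δ and 947 ± 26.9 RPKM in wild type. They were followed by atp6, with 1466 ± 74.3 RPKM in dbr1Δ and 761 ± 11.2 RPKM in wild type. The 2 lowest were rps3, with 389 ± 8.95 RPKM in dbr1Δ and 179 ± 13.6 RPKM in wild type, and atp8, with 88.6 ± 4.07 RPKM in dbr1Δ and 38.2 ± 0.977 RPKM in wild type.

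Messages of the same complex thus lay far apart. How far depends on the length used where a gene is short. With the length less the read length plus 1, the wild-type level was 56.8 RPKM for atp8 and 811 RPKM for atp6. The ratios below use the full annotated length. The RPKM of atp9 over that of atp6 was 2.99 and 3.85 in dbr1Δ, against 3.42 and 3.73 in wild type, and here the strains overlapped. The RPKM of atp8 over that of atp6 was 0.0565 and 0.0647 in dbr1Δ, against 0.0506 and 0.0499 in wild type. The RPKM of cox2 over that of cox3 was 2.02 and 2.11 in dbr1Δ, against 2.44 and 2.63 in wild type. The widest shift was that of cox2 over atp8, 44.8 and 40.2 in dbr1Δ and 58.3 and 67.8 in wild type. In the last 3 of these ratios the strains did not overlap. Nor did they in rps3 over cox2 (0.0997 and 0.108 in dbr1Δ, 0.0832 and 0.0666 in wild type). The same held for atp9 over atp8 (53.0 and 59.6 in dbr1Δ, 67.5 and 74.7 in wild type). Since cox2 and atp8 had the smallest and the largest fold change, the wide shift of their ratio follows from the choice. Every ratio given here without overlap contains cox2 or atp8, and so restates their fold changes. The ratio of atp9 over atp6 contains neither. None of the ratios was tested. With 2 libraries per strain such separation, in either direction, has a chance of 0.333 for an unchanged ratio if the libraries are exchangeable. The ratios share genes and libraries and are not separate observations.

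**Figure D3:**
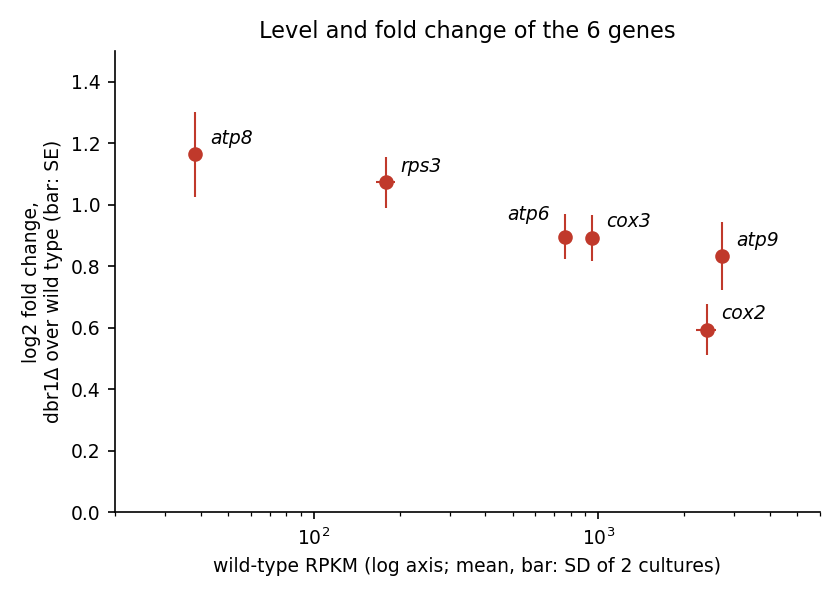
Log2 fold change, dbr1Δ over wild type (bars: standard error), of the 6 genes against their wild-type level in RPKM (log axis, mean and SD of 2 cultures). The 2 genes of lowest level, atp8 (38.2 RPKM) and rps3 (179 RPKM), have the largest fold changes, 1.16 and 1.07.

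Fold change and level ran in nearly opposite order over the 6 genes, with a Spearman's rho of -0.94 (n = 6 genes, a description), and the same value was found with the level in either strain. Over all 8 protein genes the rho with the wild-type level was -0.83. The points share the same 4 libraries. They also differ in base composition, and their share of G and C followed the order of their RPKM exactly (rho = 1 over the 6 genes, 0.88 over all 8 protein genes). The rho of fold change with G and C content was likewise -0.94 over the 6 genes, and -0.67 over all 8. With gene length it was -0.37 over the 6 genes. Among 4963 tested nuclear protein-coding transcripts, whose coding sequences hold 25.8% to 54.9% G and C, the rho of log2 fold change with this content was 0.02, and the 174 of them under 35% had a median log2 fold change of -0.14, against -0.24 for all 4963. The frames of atp8 (19.0%) and rps3 (22.5%), which had the largest fold changes, lie below the 25.8% at which the nuclear range begins. The nuclear transcripts therefore cannot speak for these genes. The part of base composition in the levels and in the fold changes of the 6 genes was not tested.

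Of all counts, the 6 genes held 0.690% and 0.677% in dbr1Δ and 0.377% and 0.403% in wild type. The mean share was 0.684% ± 0.0088 in dbr1Δ and 0.390% ± 0.0178 in wild type (SD, n = 2 each), a ratio of 1.75. As a share of transcript counts alone the ratio was 1.88, and of nuclear protein-coding counts 1.98. The exact two-sided permutation test gave p = 0.333, the smallest that 2 against 2 libraries allow. Wilson 95% intervals of the shares, which cover counting error only, ran from 0.687% to 0.693% and from 0.674% to 0.681% in dbr1Δ and from 0.375% to 0.380% and from 0.401% to 0.405% in wild type. Within the 6 genes, cox2 gave 41.6% and 40.5% of counts in dbr1Δ, against 44.9% and 47.2% in wild type. The share of cox3 was 22.6% and 21.0% in dbr1Δ, against 20.1% and 19.7% in wild type.

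The tRNAs beside the 6 genes come from the same precursors, and most of them had larger fold changes than the messages between them. Over the 38 mitochondrial transcripts, 24 of 25 tRNAs were higher at an adjusted p under 0.05 with edgeR (21 with DESeq2) and none was lower with either, and their median log2 value was 1.63, against 0.89 for the 6 genes. The mitochondrial tRNAs together held 2.61% and 4.23% of counts in dbr1Δ and 1.09% and 1.07% in wild type, so the 2 dbr1Δ libraries stood apart in them, while the 6 genes held nearly equal shares in both. Over the 2 rRNA genes, 189 and 539 counts were left in dbr1Δ and 1363 and 2096 in wild type after rRNA depletion, so their fold changes follow the depletion as well as the level and the 2 cannot be told apart.

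In the coordinates of the table, the histidine tRNA gene lies 20 bases after atp6. It had 8194 and 5861 counts in dbr1Δ cells, against 2095 and 3109 counts in wild-type cells. Its log2 fold change was 1.85 (adjusted p = 2.88e-07 with edgeR), against 0.90 for atp6. The leucine tRNA before atp6 had a log2 fold change of 1.87 (adjusted p = 1.13e-05 with edgeR). Both tRNAs around atp6 thus had the larger fold change, a difference that was not tested.

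The alanine tRNA 26 bases after atp9 had 59074 and 42367 counts in dbr1Δ cells, against 17449 and 26612 counts in wild-type cells. Its log2 fold change was 1.63 (adjusted p = 1.05e-06 with edgeR), and that of the serine tRNA before atp9 was 1.24 (adjusted p = 4.80e-05 with edgeR). After rps3, 24 bases on, the isoleucine tRNA had a log2 fold change of 2.07 (adjusted p = 4.72e-04 with edgeR), with 908 and 1185 counts in dbr1Δ cells, against 366 and 298 counts in wild-type cells. This tRNA lies between rps3 and atp8.

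Of the tRNA and rRNA genes beside the 6, 3 had lower fold changes than the message. The glutamine tRNA before rps3 had 8693 and 12729 counts in dbr1Δ cells, against 6442 and 12215 counts in wild-type cells, and a log2 fold change of 0.71 (adjusted p = 0.0421 with edgeR), against 1.07 for rps3. The cysteine tRNA 21 bases after atp8 had 1087 and 1759 counts in dbr1Δ cells, against 1213 and 1449 counts in wild-type cells. With a log2 fold change of 0.55 (adjusted p = 0.118 with edgeR) it was the only tRNA of the 25 that did not pass with edgeR, beside 1.16 for atp8. The third is the large rRNA gene after cox2, at -1.86 (adjusted p = 0.00416 with edgeR).

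Before cox2, the glutamate tRNA had a log2 fold change of 1.18 (adjusted p = 0.00582 with edgeR), against 0.59 for cox2. After cox3, 52 bases on, the arginine tRNA had 355 and 860 counts in dbr1Δ cells, against 222 and 229 counts in wild-type cells, and a log2 fold change of 1.90 (adjusted p = 0.00732 with edgeR). Its 2 dbr1Δ cultures differed more than those of cox3 did. Upstream of cox3 the neighbour is cox1, with 0.66.

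**Figure D4:**
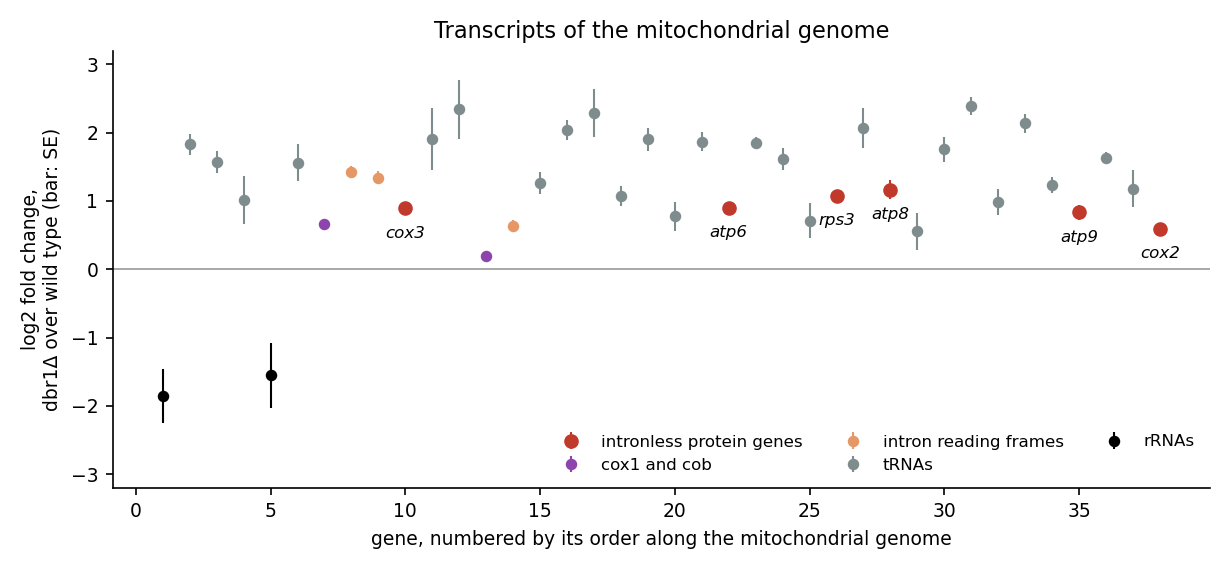
Log2 fold change, dbr1Δ over wild type (bars: standard error), of the 38 mitochondrial transcripts in their order along the genome. The 6 intronless protein genes (red, named) lie between 0.59 and 1.16, most tRNAs (grey) lie above them with a median of 1.63, and the 2 rRNAs (black) lie below 0. The 3 intron reading frames (orange) lie between 0.64 and 1.42, and cox1 and cob (purple) have 0.66 and 0.20.

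The nuclear partners of the 6 products were called in both directions. Among all nuclear protein-coding transcripts, 12.9% were higher and 50.3% lower at an adjusted p under 0.05 with edgeR. These shares were 22.3% higher and 32.4% lower with scaling from transcripts. Of 14 nuclear ATP synthase subunits, 3 were higher and 5 lower at this threshold (2 and 5 with DESeq2), none past the fold cutoff, and the list's median log2 value was -0.10, against -0.18 over all tested transcripts and 0.89 for the 6 mitochondrial genes. The alpha subunit gene atp1 had 352 and 302 CPM in dbr1Δ and 564 and 611 CPM in wild type (log2 fold change -0.85, adjusted p = 1.28e-04 with edgeR). Subunit H, encoded by atp14, went the other way with 74.3 and 86.2 CPM in dbr1Δ and 53.1 and 59.2 CPM in wild type (log2 fold change 0.51, adjusted p = 0.00189 with edgeR).

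Of 11 genes listed as nuclear cytochrome c oxidase subunits, coa6, rcf1 and rcf2 among them, 1 was higher and 4 were lower (1 and 3 with DESeq2). The median log2 value was -0.07. The only gene called higher was coa6, which the annotation relates to subunit VIb and which is counted among the assembly factors as well. It had 11.5 ± 0.662 CPM in dbr1Δ and 8.02 ± 0.313 CPM in wild type (SD, n = 2 each, log2 fold change 0.52). The lowest was cox9, subunit VIIa, with 79.9 and 77.0 CPM in dbr1Δ and 106 and 111 CPM in wild type (log2 fold change -0.47). With scaling from transcripts the counts were 2 higher and 1 lower for this list and 4 higher and 4 lower for the ATP synthase list, so the scale bears mainly on the decreases in the cytochrome c oxidase list.

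Assembly factors of the same 2 complexes gave 5 higher and 6 lower of 26 (3 and 5 with DESeq2), and a median log2 value of -0.04. The balance turned to 8 higher and 2 lower, with a median of 0.14, under scaling from transcripts. The widest change was that of cmc2, annotated in the biogenesis of cytochrome c oxidase, with 12.5 and 16.4 CPM in dbr1Δ and 38.1 and 33.3 CPM in wild type (log2 fold change -1.31), the only gene of this list past the fold cutoff. Next was coa2, an assembly factor of the same complex, with 19.5 and 17.7 CPM in dbr1Δ and 37.4 and 29.2 CPM in wild type (log2 fold change -0.83). Both also fell with scaling from transcripts.

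The mitochondrial ribosomal proteins encoded in the nucleus, the partners of the rps3 product, were lower more often than higher, as were nuclear protein-coding transcripts in general (50.3% lower and 12.9% higher). Of 30 small subunit proteins 1 was higher and 17 were lower (median log2 value -0.27, 0 and 16 with DESeq2), and of 44 large subunit proteins 2 were higher and 19 lower (median -0.19, 1 and 17 with DESeq2). At an unadjusted p under 0.05 with edgeR, 2 small subunit proteins were higher and 17 lower. The small subunit gene mrp17 had 53.9 and 53.9 CPM in dbr1Δ and 107 and 106 CPM in wild type (log2 fold change -0.99). Another small subunit gene, mrp10, had 19.5 and 18.1 CPM in dbr1Δ and 37.5 and 35.8 CPM in wild type (log2 fold change -0.96). With scaling from transcripts 7 small subunit proteins were higher and 11 lower, and 7 large subunit proteins were higher and 13 lower.

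**Figure D5:**
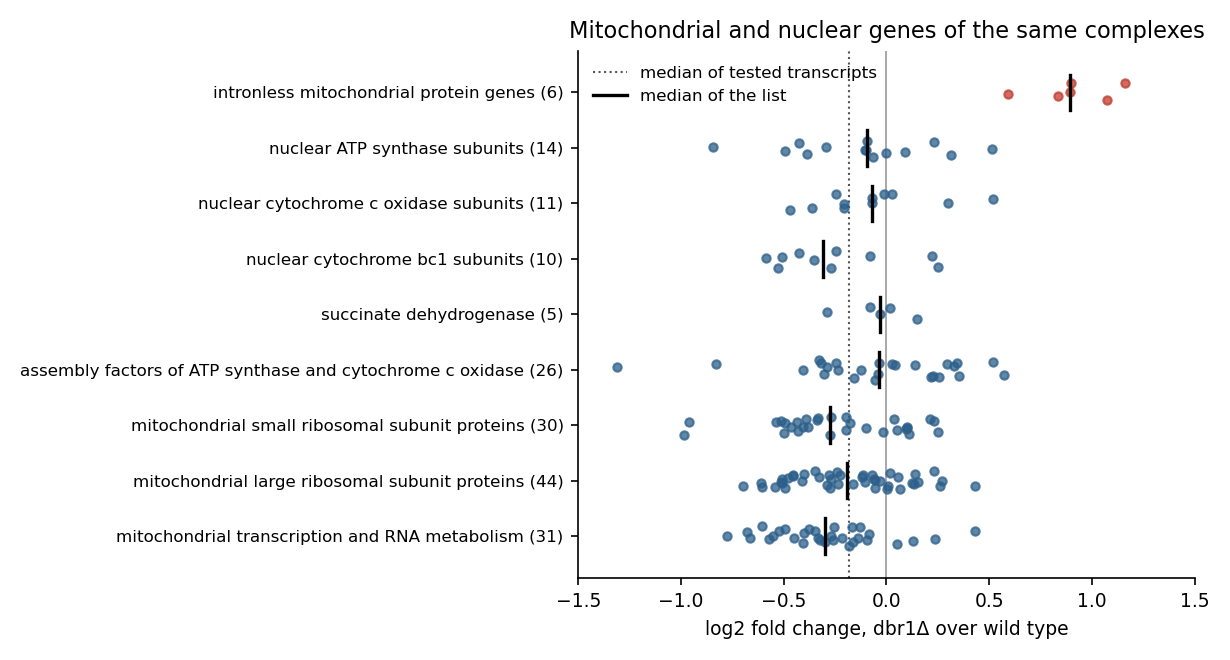
Log2 fold change, dbr1Δ over wild type, of the 6 intronless mitochondrial protein genes (red) and of nuclear genes listed for the same complexes and for mitochondrial gene expression (blue), with the number of tested genes in parentheses. The bc1 list and the list of mitochondrial transcription and RNA metabolism are shown as filled by symbol, with genes of another role among them. Each point is a gene, black bars are list medians and the dotted line is the median of tested transcripts (-0.18). The mitochondrial genes have a median of 0.89 and the nuclear lists have medians between -0.31 and -0.03.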

How the data were processed

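The deposited table holds, for 2 dbr1Δ and 2 wild-type libraries, counts of 49-base reads. The authors aligned the reads with Bowtie to the EF1 genome and its exon-exon junctions, and removed reads that matched multiple loci. The authors also deposited expression as log2(RPKM + 1e-05), used only for the level order, and locus lengths in bases. Deposited columns of DESeq fold changes, p-values and splicing efficiencies were not used.

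For introns, reads across the 5′ boundary were added to the reads inside. After a filter of 10 counts in 2 or more libraries, edgeR 4.0.16 in R 4.3.3 was run with TMM factors and its quasi-likelihood test, adjusted by Benjamini-Hochberg over 9518 loci (6401 transcripts and 3117 introns). For the comparison among mitochondrial protein genes, the library scale was the geometric mean count of 8 of them. Scripts were tested on simulated data, and permutation tests used SciPy 1.17.1. Totals of 19780858 to 36062720 counts give the depth. The labels state 2 biological replicates per strain. The edgeR p-values rest on the spread between those cultures, which edgeR moderates with that of the other tested loci. The SE beside an edgeR value is the absolute log2 fold change divided by the square root of the test's F statistic.

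Symbols and sequences came from RefSeq (ASM294v3), which matched 6844 of 7022 transcripts and, by place, 37 of 38 mitochondrial genes. Its coordinates differ from EF1 by up to 14 bases for these genes, so sequences were read at RefSeq's own.

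Alternatives were DESeq2 1.42.0, RLE factors, library totals only, factors from transcripts or from nuclear protein-coding transcripts, transcripts fitted without introns, no filter on low counts, a mean of at least 50 counts, a replicate block and leaving out each library. Among mitochondrial genes the scale was also set by summed counts or by cox1 and cob alone. For the level order, the deposited RPKM and, chosen after seeing the data, the length less the read length plus 1 were tried. The share was also taken of transcript counts and of nuclear protein-coding counts.

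The genes and lists were chosen with earlier results of these data known. Named are the 6 genes, cox1, cob, the mitochondrial genes beside each, dbr1, the largest changes of each nuclear list (up to 4 genes at an adjusted p under 0.05) and the 5 nuclear transcripts closest in profile. Lists were filled by symbol and annotated product.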

Additional observations from a re-analysis of the deposited data

How the results depend on the processing

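Over 13 alternatives, each of the 6 genes stayed higher in dbr1Δ at an adjusted p under 0.05 in 78 of 78 values, and none changed direction. The lowest and highest log2 fold changes were 0.86 and 1.12 for cox3, 0.87 and 1.13 for atp6, 1.01 and 1.30 for rps3, 1.12 and 1.39 for atp8, 0.70 and 1.06 for atp9, and 0.51 and 0.83 for cox2. Genes of the 6 past the fold cutoff, 2 as reported, were 5 with factors from transcripts, from nuclear protein-coding transcripts or in the fit without introns, 4 at a mean of at least 50 counts, and 2 to 3 without 1 library. Of all loci, 2079 were increased and 221 decreased. Decreased loci were 115 with factors from transcripts and 103 with factors from nuclear protein-coding transcripts. The fit without introns, which tests fewer loci, gave 525 increased and 89 decreased, and a mean of at least 50 counts, which does too, gave 1206 and 100. Without 1 library, increased loci were 1521 to 1968 and decreased loci 185 to 206. On the scale of the 8 mitochondrial protein genes, the 2 genes called higher became 4 with summed counts and 5 with cox1 and cob alone, and 0 to 1 without 1 library, while the genes called lower were 0 to 1. On that scale atp9 turned to -0.092 without dbr1Δ replicate 2 and was at most 0.16 without another library. With cox1 and cob as the scale, cox2 turned to 0.17. The cause was not tested in either case, and on the scale of cox1 and cob the low fold change of cob raises all values by construction. The ratio of the 6 genes' shares was 1.698 to 1.811 without 1 library. It was 1.88 of transcript counts and 1.98 of nuclear protein-coding counts. The level order held with both other lengths. The replicate numbers are only names: deviations of equally numbered libraries had a correlation of -0.02 over 9518 loci, and with a replicate block 2 of the 6 genes passed the cutoff, with rps3 at 1.07 and atp8 at 1.16. Depth limits atp8 most, since it rests on 144 to 305 reads per library.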

Other observations

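The bc1 complex, which receives only cytochrome b from the mitochondrial genome, had the lowest median log2 fold change of the nuclear respiratory lists (-0.31), with 1 of 10 genes higher and 7 lower at an adjusted p under 0.05 with edgeR (0 and 7 with DESeq2), beside 12.9% higher and 50.3% lower among nuclear protein-coding transcripts. The gene that rose among these 10 is cor1, which was caught by its symbol and is annotated as a cornichon family protein. Without it, 0 of 9 were higher and 7 were lower, and the same counts were found at an unadjusted p under 0.05 and with DESeq2. The gene of qcr6 had 269 and 262 CPM in dbr1Δ and 398 and 400 CPM in wild type (log2 fold change -0.59). The Rieske protein gene rip1 had 125 and 114 CPM in dbr1Δ and 169 and 176 CPM in wild type (log2 fold change -0.53). With scaling from transcripts 2 of the 10 were higher and 3 lower, beside 22.3% and 32.4% of nuclear protein-coding transcripts. Succinate dehydrogenase, which has no mitochondrially encoded subunit, had 0 of 5 genes higher and 1 lower, again with the same counts at an unadjusted p under 0.05 and with DESeq2. That gene, sdh1, the flavoprotein subunit, had 609 and 641 CPM in dbr1Δ and 786 and 743 CPM in wild type (log2 fold change -0.29), and with scaling from transcripts 1 of the 5 was higher and none lower.

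Of 31 genes listed for mitochondrial transcription and RNA metabolism, 1 was higher and 19 lower at an adjusted p under 0.05 with edgeR (1 and 18 with DESeq2), beside the same 12.9% and 50.3%, and the median log2 value was -0.30. For 6 of the 31 the annotation names another role, among them nuc1 (RNA polymerase I), cbs2 (a protein kinase activator) and mrs1 (an arginine tRNA ligase), and without these 6, chosen after their values were seen, 1 of 25 was higher and 15 were lower. The RNA helicase gene mss116 had 77.6 and 79.1 CPM in dbr1Δ and 128 and 123 CPM in wild type (log2 fold change -0.68). With scaling from transcripts 2 of the 31 were higher and 11 lower, beside 22.3% and 32.4%.

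Among 5813 nuclear transcripts of at least 50 mean counts, the profiles closest to the mean of the 6 genes over the 4 libraries, by Euclidean distance of centred log2 CPM, were those of rib5 (riboflavin synthase, distance 0.022), caa1 (aspartate aminotransferase, 0.022), asn1 (asparagine synthetase, 0.029), pca1 (metacaspase, 0.041) and SPAC1B3.06c (a methyltransferase, 0.049). The 6 genes themselves lay between 0.092 (atp6) and 0.333 (cox2) from their mean. With 4 libraries in 2 strains, this measure mostly compares fold changes.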
